A study of Homo sapiens with 9 samples.

Results

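Interferon response genes were described in U251 cells, a human glioblastoma line, with and without knockdown of MSI1, which encodes the RNA-binding protein Musashi1. A list of 46 genes known to be induced by interferon was looked up by symbol in the gene counts, which held 41 of them among 20848 genes. PSMB8, PSMB9, TAP1, HLA-B and HLA-C were not analysed here. Of the 41 genes, 40 passed a filter on low counts that kept 13856 genes. XAF1, a gene that promotes cell death, did not pass, with 9, 7 and 6 reads in knockdown libraries 1, 2 and 3 and 11, 10 and 12 reads in control libraries 1, 2 and 3. RNA-seq was done on 3 samples of U251 cells labelled Msi1 KD and 3 samples labelled wild type (control). iCLIP, which maps the single nucleotides that ultraviolet light crosslinks to a protein, was done with an antibody against MSI1 on 3 samples also labelled wild type (control). The labels do not say how MSI1 was knocked down, what the control cells received or that the replicates came from separate cultures, and no interferon or other treatment is named. The p-values below therefore rest on a spread between samples that may be technical only. In bulk samples such as these, fewer cells that express a gene and less of its RNA per cell cannot be told apart.

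Interferons are secreted proteins by which cells warn each other of infection. Cytosolic sensors of viral RNA start their synthesis, the interferon binds its receptor on the same or a neighbouring cell, and the kinases JAK1 and TYK2 activate transcription factors, STAT2 among them. STAT2 and IRF9 are part of a complex that binds a short promoter sequence, the interferon-stimulated response element (ISRE), and switches on a large set of genes whose products degrade viral RNA, block its translation, hinder viral entry and exit, and feed back on the pathway itself. Many tumour cell lines keep part of this set active without added interferon.

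The ISRE core was found near the annotated start of most of these genes for which a promoter sequence was matched. RefSeq promoter windows on GRCh38.p14, each of 300 bases from 250 before to 50 after the annotated start of a gene, were matched by symbol for 32 of the 41 genes. The ISRE core was searched on both strands as GAAA, any 2 bases and GAAA, with overlapping matches allowed, and stood in 22 of the 32 windows (68.8%), against 1255 of 35116 windows of all genes (3.57%). A second interferon motif, the GAS element, was searched as TTC, any 3 bases and GAA, which reads the same on both strands, and stood in 9 of the 32 windows (28.1%), against 7.66% of all windows. A match is a stretch of letters, and binding was not measured. The windows of 5 genes on which the results below turn are printed 5′ to 3′ on the strand of the gene, with the matches to the ISRE core in capitals, read on either strand. IFI44L and IFI44 (chr1:78620198-78620497 and chr1:78649539-78649838, plus strand) are shown because they were the members that were higher in the knockdown by a test. HERC5 (chr4:88456869-88457168, plus strand) had the largest decrease. ISG15 (chr1:1013247-1013546, plus strand) and IFIT3 (chr10:89327747-89328046, plus strand) departed in opposite directions in control library 3.
IFI44L: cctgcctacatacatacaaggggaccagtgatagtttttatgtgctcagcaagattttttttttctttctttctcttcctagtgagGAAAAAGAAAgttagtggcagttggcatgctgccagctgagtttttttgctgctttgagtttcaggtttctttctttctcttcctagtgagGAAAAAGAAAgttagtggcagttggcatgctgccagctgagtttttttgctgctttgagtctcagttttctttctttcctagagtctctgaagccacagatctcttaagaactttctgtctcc
IFI44: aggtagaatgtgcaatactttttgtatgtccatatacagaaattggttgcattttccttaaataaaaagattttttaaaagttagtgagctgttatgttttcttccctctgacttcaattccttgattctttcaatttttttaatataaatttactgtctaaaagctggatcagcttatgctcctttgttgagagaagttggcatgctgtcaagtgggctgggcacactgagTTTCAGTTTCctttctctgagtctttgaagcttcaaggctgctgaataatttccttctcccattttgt
HERC5: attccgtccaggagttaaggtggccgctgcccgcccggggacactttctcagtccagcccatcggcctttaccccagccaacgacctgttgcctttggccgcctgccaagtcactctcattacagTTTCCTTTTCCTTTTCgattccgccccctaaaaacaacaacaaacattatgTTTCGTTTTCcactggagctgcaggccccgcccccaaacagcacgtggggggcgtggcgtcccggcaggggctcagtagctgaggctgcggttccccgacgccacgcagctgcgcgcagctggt
ISG15: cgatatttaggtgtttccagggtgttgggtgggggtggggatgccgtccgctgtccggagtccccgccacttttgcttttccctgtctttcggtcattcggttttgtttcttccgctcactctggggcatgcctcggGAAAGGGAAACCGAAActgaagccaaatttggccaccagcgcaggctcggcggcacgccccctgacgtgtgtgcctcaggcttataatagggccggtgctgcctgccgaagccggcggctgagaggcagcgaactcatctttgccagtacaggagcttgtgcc
IFIT3: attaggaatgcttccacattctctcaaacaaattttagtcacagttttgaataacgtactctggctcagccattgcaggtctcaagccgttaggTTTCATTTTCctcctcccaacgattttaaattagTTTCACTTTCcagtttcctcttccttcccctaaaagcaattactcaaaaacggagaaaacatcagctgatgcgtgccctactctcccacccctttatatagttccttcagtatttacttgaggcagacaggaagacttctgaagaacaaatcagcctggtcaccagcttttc
The IFI44L window held the core at 164 and 73 bases before the start of the gene, both with the same letters, within a run of 85 bases that occurred 2 times without a difference, 91 bases apart. The IFI44 window held 1 match, and the longest run that it shared with the IFI44L window was 13 bases, agttggcatgctg. In the HERC5 window 2 of the 3 matches overlapped each other, and in the ISG15 window both matches overlapped. The core stood in the windows of genes that were higher in the knockdown (IFI44L and IFI44) and of genes that were lower (HERC5, DDX60, OAS3 and PARP14), and the PARP9 window held none.

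MSI1 itself, the target, had 134, 195 and 90 reads in knockdown libraries 1, 2 and 3, against 726, 688 and 244 reads in control libraries 1, 2 and 3. On the counts-per-million scale (CPM), with TMM factors, these were 3.15, 5.11 and 2.26 CPM in the knockdown and 16.05, 17.7 and 7.59 CPM in the control. No knockdown library reached the lowest control. Its log2 fold change, knockdown over control, was -1.97 (SE 0.42), with a Benjamini-Hochberg adjusted p of 0.0699 in edgeR's quasi-likelihood test and 0.00279 with the replicate number as a block. Reads counted in genes summed to between 37082699 and 42427430 in knockdown libraries and between 32919299 and 47277016 in control libraries. Control library 3 was the shallowest and stood apart from the other 5, at 80.6 on the leading principal component (62.5% of the variance), against -40.9 to 10.4 for the others. Leukocytes carry strong interferon responses, and of 9 leukocyte markers listed, 8 were measured, among which CD3E, MS4A1 and ITGAM had no read in any library. The leukocyte markers summed to between 5.99 and 7.66 CPM in knockdown libraries and between 5.01 and 8.33 CPM in control libraries, and their part in the members' levels was not tested. The markers of glioblastoma and astroglial cells summed to between 6439 and 7443 CPM in knockdown libraries and between 6828 and 8025 CPM in control libraries, and those of fibroblasts to between 1447 and 1896 CPM in knockdown libraries and between 1404 and 1827 CPM in control libraries. The neuron markers summed to between 3.78 and 5.07 CPM in knockdown libraries and between 1.65 and 2.93 CPM in control libraries, and the endothelium markers to between 0.681 and 1.21 CPM in knockdown libraries and between 0.199 and 0.622 CPM in control libraries. For the neuron and endothelium sums the groups did not overlap, with the knockdown higher, which also held for 8.73% of single genes tested. These sums were low and rested on few genes. Of 4 neuron markers listed, 3 were measured and 2 passed the filter, and STMN2 had no read in any library. Of 3 endothelium markers listed, 1 passed the filter. The part of these markers in the members' changes was not tested.

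The members spanned 4 orders of magnitude in level. In RPKM, the CPM of a gene divided by its exonic length in kilobases (mean of the 6 libraries), B2M, the light chain of MHC class I molecules, was the highest at 1145 RPKM and did not overlap any other member in any library. IFITM3 (84.3 RPKM), BST2 (55.6 RPKM), IFI44 (34.3 RPKM), PARP14 (27.9 RPKM) and EIF2AK2 (27.9 RPKM) followed, each with a range over the libraries that overlapped that of the next. The lowest were RSAD2 (0.1002 RPKM), OAS2 (0.179 RPKM), IRF7 (0.299 RPKM) and OAS1 (0.375 RPKM). In all, 14 tested members were at or above 10 RPKM, 20 were between 1 and 10 RPKM and 6 were below 1 RPKM. The interferon genes themselves were almost silent. Of 9 interferon genes listed, 4 had no read in any library, which allows at most 3 reads or between 0.0635 and 0.0911 CPM in each library by counting error alone. A further 4 had between 2 and 8 reads over all 6 libraries, and IFNE, which encodes interferon epsilon, was the only one that passed the filter.

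**Figure D1:**
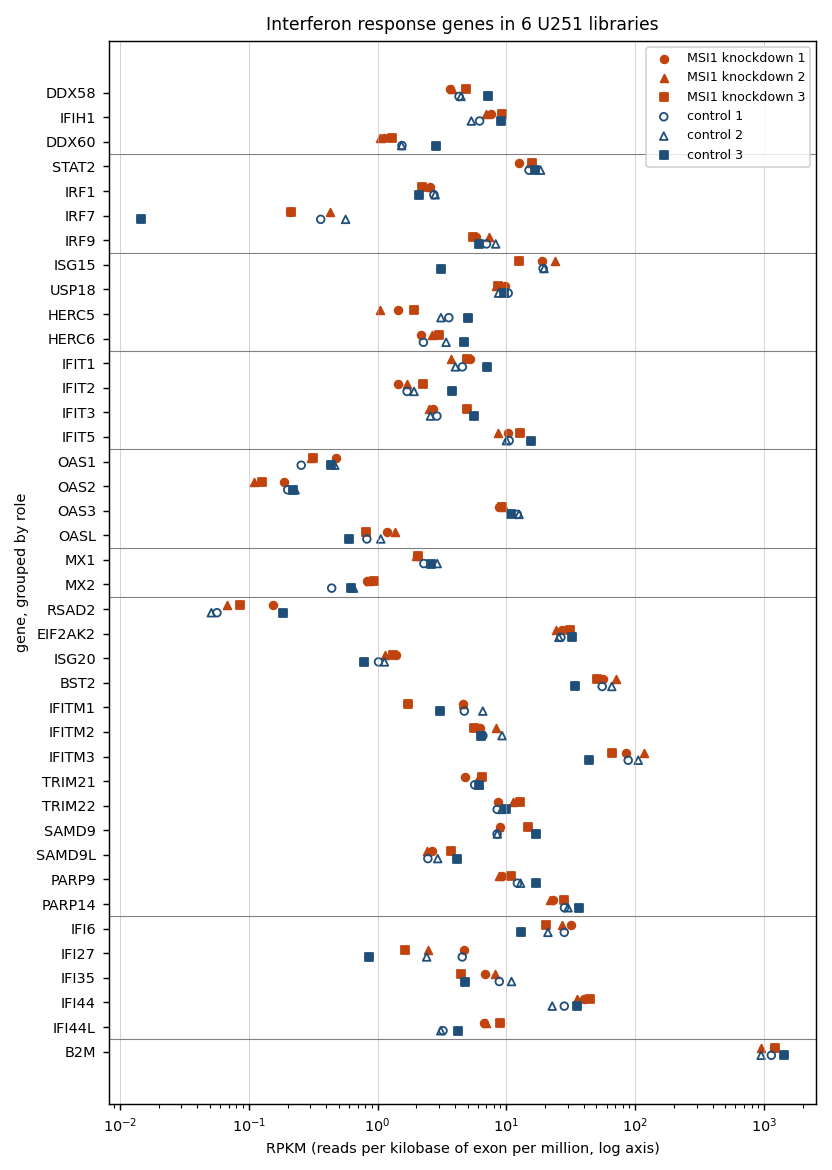
Level of each tested interferon response gene in RPKM on a log axis, with 1 point per library, MSI1 knockdown in orange above control in blue for each gene, and genes grouped by role. B2M stands alone at the high end, and control library 3 (filled blue square) lies below the other libraries for IRF7, ISG15 and IFI27 and above the other controls for IFIT2, IFIT3 and SAMD9.

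Among these genes both directions of change occurred, and about as many passed the test as among all genes. In the fit of group alone, edgeR called 1 of 40 members at an adjusted p below 0.05, IFI44L, which was higher (2.5% of members, beside 1.67% of all genes tested in either direction, 0.772% called higher and 0.902% called lower). With the replicate number as a block, 7 of 40 were called (17.5%, beside 17.3% of all genes tested). Of these IFI44L and IFI44 were higher, beside 7.04% of all genes, and HERC5, DDX60, OAS3, PARP9 and PARP14 were lower, beside 10.3% of all genes. An unadjusted p below 0.05 was reached by 8 of 40 members (20%), beside 15.5% of all genes. The median log2 fold change of the members was -0.11 (quartiles -0.36 and 0.18), with 13 above 0 and 27 below. That of all genes was -0.04 (quartiles -0.26 and 0.20), with 6293 above 0 and 7563 below. Knockdown and control libraries did not overlap for 3 members that were higher, IFI44L, MX2 and ISG20, beside 8.73% of all genes, and for 7 that were lower, DDX60, HERC5, OAS2, OAS3, MX1, PARP9 and PARP14, beside 14.1% of all genes.

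Knockdown libraries were also set against the control library of the same number, a pairing assumed from the titles. Same-numbered libraries departed from their group means together, though control library 1 departed more with knockdown library 2. The median change over the members was -0.05, -0.13 and -0.17 on the log2 scale in pairs 1, 2 and 3, against -0.07, -0.03 and 0.01 over all genes. With DESeq2's size factors setting the scale all of these medians moved up, in pairs 1, 2 and 3 to 0.02, -0.08 and -0.14 over the members and to -0.01, 0.02 and 0.04 over all genes, so that the sign in pair 1 turned for the members and that in pair 2 for all genes. In all 3 pairs 10 of 40 members were higher (25%), beside 23.5% of all genes, 18 were lower (45%), beside 32.4% of all genes, and 12 differed in direction between pairs. Pair 3 departed by the most for IRF7, with changes of -0.73, -0.38 and 2.62, and for ISG15, with changes of -0.04, 0.28 and 1.99.

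**Figure D2:**
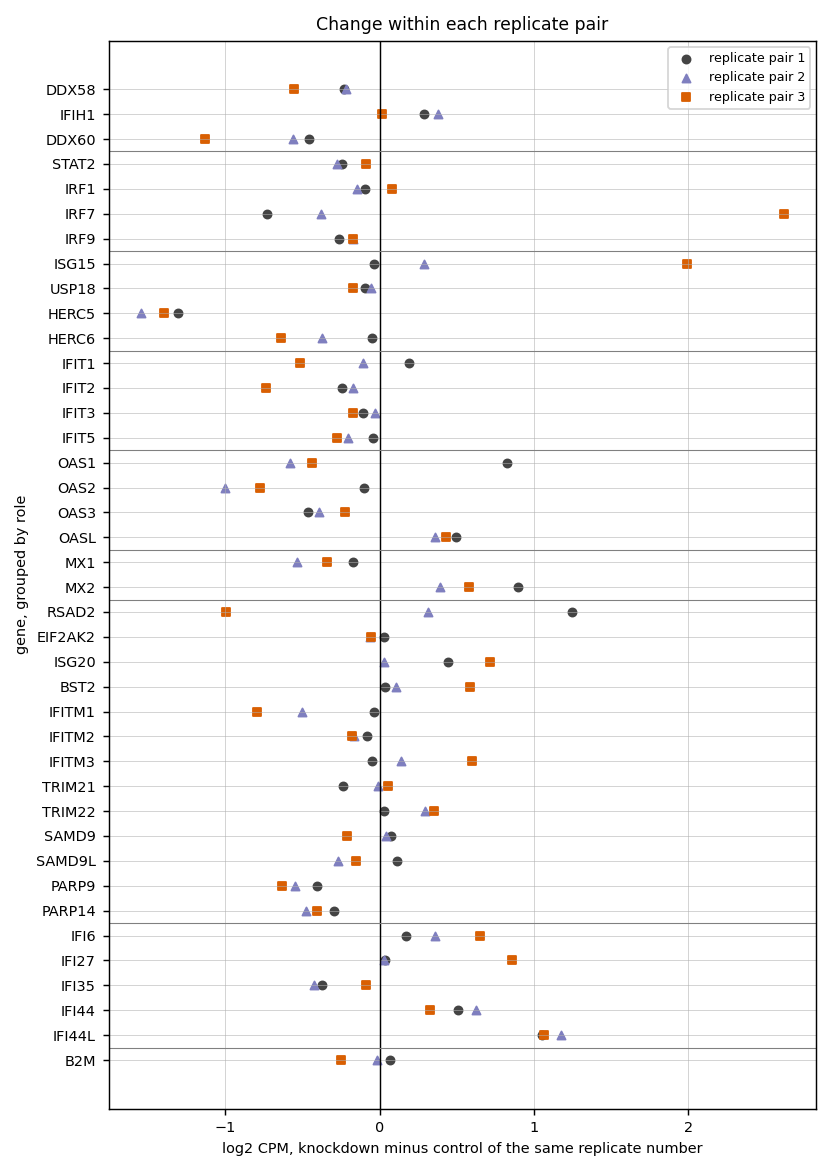
Change within each replicate pair, knockdown minus control of the same number, in log2 CPM (prior count 2), for each tested member grouped by role. IFI44L (1.05, 1.17 and 1.06) and HERC5 (-1.31, -1.55 and -1.39) have 3 close points on the same side of 0, whereas for IRF7 and ISG15 pair 3 lies far to the right of the other pairs.

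IFI44L and IFI44, neighbours on the plus strand of chromosome 1 with 3646 bases between them (hg18, chr1:78858676-78884418 and chr1:78888065-78902351), are induced strongly by interferon, and IFI44L is widely used as a marker of an interferon response in blood. IFI44L had 39.3, 41.1 and 52.2 CPM in knockdown libraries 1, 2 and 3, against 18.9, 18.2 and 24.96 CPM in control libraries 1, 2 and 3. The lowest knockdown library was thus above the highest control library. Its log2 fold change was 1.10 (SE 0.20), with an adjusted p of 0.0462 without and 0.00271 with the replicate block. The increase ran along the whole gene, since for each of its 9 exons the lowest knockdown library was above the highest control. Here and below, the exon counts come from the same libraries and are not independent of the gene count. The share of all exons with such a separation was not computed. The call depended on the libraries used. Without any 1 of the 3 knockdown libraries, control library 1 or control library 2 the adjusted p was between 0.168 and 0.193, and without control library 3 it was 0.000854 with a log2 fold change of 1.32. IFI44 had 69.0, 60.5 and 76.9 CPM in the knockdown and 48.6, 39.2 and 61.3 CPM in the control, where only knockdown library 2 and control library 3 overlapped. Its log2 fold change was 0.47 (SE 0.20), with an adjusted p of 0.322 without and 0.0237 with the block, and for 5 of its 9 exons the groups did not overlap, with the knockdown higher.

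The other members named for interferon induction alone did not pass either fit. IFI6, a small membrane protein that protects cells from death, had 27.2, 23.2 and 17.4 CPM in knockdown libraries 1, 2 and 3, against 24.2, 18.1 and 11.1 CPM in control libraries 1, 2 and 3. Each knockdown library was above the control of its number, and the groups overlapped. Its log2 fold change was 0.34 (SE 0.31). IFI27, which lies in mitochondria, had 3.03, 1.60 and 1.06 CPM in the knockdown and 2.96, 1.57 and 0.560 CPM in the control, nearly equal in pairs 1 and 2. IFI35 had a log2 fold change of -0.34 (SE 0.36).

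Among sensors of viral RNA, DDX60, a helicase that aids RIG-I, had 6.84, 6.32 and 7.90 CPM in knockdown libraries 1, 2 and 3, against 9.40, 9.33 and 17.4 CPM in control libraries 1, 2 and 3. The groups did not overlap, and control library 3 was far above the other controls. Its log2 fold change was -0.78 (SE 0.29), with an adjusted p of 0.248 without and 0.0416 with the block, and 6 of its 25 exons with at least 60 reads were lower in the knockdown with no overlap. DDX58, which encodes RIG-I itself, had 17.4, 18.1 and 23.3 CPM in the knockdown and 20.4, 21.1 and 34.3 CPM in the control, with a log2 fold change of -0.36 (SE 0.25). IFIH1, which encodes the related sensor MDA5, had 25.9, 23.8 and 31.6 CPM in the knockdown and 21.2, 18.3 and 31.3 CPM in the control, with a log2 fold change of 0.20 (SE 0.24). For these genes the groups overlapped, DDX58 being lower and IFIH1 higher in each pair.

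No transcription factor of the response was called by either fit, and the lowest adjusted p among the 4 was 0.161, for STAT2 with the block. STAT2, a subunit of the complex that binds the ISRE, had 55.9, 67.2 and 70.0 CPM in knockdown libraries 1, 2 and 3, against 66.3, 81.5 and 74.4 CPM in control libraries 1, 2 and 3. IRF9, its DNA-binding partner, had 9.80, 12.3 and 9.20 CPM in the knockdown and 11.8, 13.9 and 10.4 CPM in the control. Both were lower in each pair with groups that overlapped, with log2 fold changes of -0.20 (SE 0.16) for STAT2 and -0.20 (SE 0.20) for IRF9. IRF1, a factor that interferon gamma induces, had a log2 fold change of -0.06 (SE 0.20). IRF7, which amplifies interferon synthesis, had 19, 35 and 18 reads in the knockdown and 35, 47 and 1 reads in the control, too few for a stable estimate (log2 fold change -0.18, SE 0.83).

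ISG15 is a ubiquitin-like protein that is joined to other proteins, and HERC5 is the main ligase that joins it. HERC5 (hg18, chr4:89597291-89646337, plus strand) had 5.05, 3.70 and 6.71 CPM in knockdown libraries 1, 2 and 3, against 12.6, 10.9 and 17.7 CPM in control libraries 1, 2 and 3. The highest knockdown library was below the lowest control library. Its log2 fold change of -1.41 (SE 0.29) was the largest decrease among the members, with an adjusted p of 0.0683 without and 0.00313 with the block, and 18 of its 21 exons with at least 60 reads were lower in the knockdown with no overlap of the groups. HERC6, the adjacent gene of the same family, had a log2 fold change of -0.41 (SE 0.29) and groups that overlapped. USP18, which removes ISG15 from proteins and restrains the interferon receptor, had 19.7, 17.05 and 17.5 CPM in the knockdown and 21.0, 17.7 and 19.7 CPM in the control, with overlapping groups. ISG15 itself had 12.5, 15.9 and 8.30 CPM in the knockdown and 12.8, 13.1 and 2.05 CPM in the control. Control library 3 stood furthest apart, and knockdown library 3 was the lowest of its group too. The log2 fold change of ISG15, 0.39, had an SE of 0.61.

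**Figure D3:**
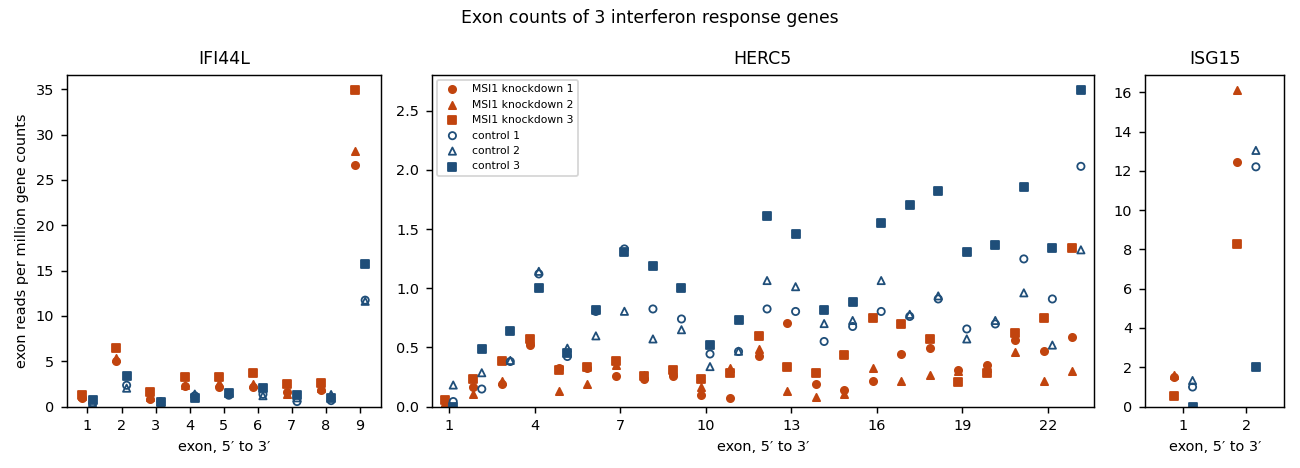
Exon reads in CPM of the gene counts of each library, exon by exon from 5′ to 3′, for IFI44L, HERC5 and ISG15, with knockdown libraries in orange left of control libraries in blue. All 9 exons of IFI44L are higher in the knockdown, 18 of the 21 HERC5 exons with at least 60 reads are lower, and exon 1 of ISG15 has no read in control library 3.

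The IFIT proteins bind viral RNA, and none of the 4 genes was called. IFIT5 had 41.2, 35.0 and 51.5 CPM in knockdown libraries 1, 2 and 3, against 42.4, 40.4 and 62.2 CPM in control libraries 1, 2 and 3. IFIT1 had 9.68, 6.95 and 9.25 CPM in the knockdown and 8.47, 7.48 and 13.3 CPM in the control. IFIT2 had 5.004, 5.95 and 7.85 CPM in the knockdown and 5.92, 6.71 and 13.1 CPM in the control. For each, control library 3 was the highest of the 6 libraries. IFIT3 had 7.21, 6.77 and 13.3 CPM in the knockdown and 7.76, 6.92 and 15.03 CPM in the control, and here knockdown library 3 was high as well. The log2 fold changes lay between -0.45 and -0.12, and all 4 turned positive without control library 3 (0.05 to 0.38).

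The OAS enzymes make the oligoadenylates that activate RNase L. OAS3 had 58.4, 63.1 and 61.7 CPM in knockdown libraries 1, 2 and 3, against 80.5, 83.0 and 71.9 CPM in control libraries 1, 2 and 3. The groups did not overlap, and the log2 fold change was -0.36 (SE 0.13), with an adjusted p of 0.244 without and 0.0435 with the block. Along the gene the separation was partial, since only 1 of 16 exons was lower and 1 was higher in the knockdown with no overlap. OASL, a relative without that enzyme activity, had 2.14, 2.49 and 1.48 CPM in the knockdown and 1.503, 1.93 and 1.09 CPM in the control, higher in each pair with overlapping groups (log2 fold change 0.43, SE 0.32). OAS1 and OAS2, at 23 to 40 and 26 to 56 reads per library, had log2 fold changes of -0.07 (SE 0.36) and -0.62 (SE 0.29).

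MX1 and MX2 are dynamin-like GTPases that trap viral components, and the pair lay on opposite sides of 0. MX1 had 7.31, 7.21 and 7.42 CPM in knockdown libraries 1, 2 and 3, against 8.25, 10.5 and 9.40 CPM in control libraries 1, 2 and 3. MX2 had 2.47, 2.54 and 2.77 CPM in the knockdown and 1.30, 1.93 and 1.84 CPM in the control. Neither gene had groups that overlapped, and neither passed either fit. The log2 fold changes were -0.36 (SE 0.18) for MX1 and 0.62 (SE 0.24) for MX2, with adjusted p of 0.145 and 0.0816 with the block.

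Of the other antiviral effectors, PARP9 and PARP14, which belong to a family of ADP-ribosylating enzymes, were lower by the fit with the block. PARP9 had 73.3, 70.2 and 87.0 CPM in knockdown libraries 1, 2 and 3, against 97.1, 103 and 135 CPM in control libraries 1, 2 and 3. PARP14 had 178, 167 and 214 CPM in the knockdown and 218, 232 and 284 CPM in the control. Neither gene had groups that overlapped. The log2 fold change was -0.54 (SE 0.18) for PARP9, with an adjusted p of 0.191 without and 0.0120 with the block, and -0.39 (SE 0.16) for PARP14, with 0.299 without and 0.0187 with the block. PARP9 shares 339 bases with DTX3L on the opposite strand, and the strand setting of the counts is not given here.

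The remaining effectors were not called. BST2, or tetherin, which holds budding virus at the cell surface, had 53.2, 66.5 and 47.9 CPM in knockdown libraries 1, 2 and 3, against 52.0, 61.8 and 31.9 CPM in control libraries 1, 2 and 3. IFITM3, which blocks viral entry, had 56.9, 77.8 and 44.2 CPM in the knockdown and 58.9, 70.6 and 29.2 CPM in the control. For both, library 3 was the lowest of each group. The IFITM genes are near-identical in part, so their reads may be split between them. RSAD2, or viperin, had 23, 9 and 12 reads in the knockdown and 9, 7 and 21 reads in the control, with no order between the groups. EIF2AK2, the kinase PKR that halts translation, had a log2 fold change of -0.03 (SE 0.16), and the other members of the group, ISG20, IFITM1, IFITM2, TRIM21, TRIM22, SAMD9 and SAMD9L, lay between -0.39 and 0.40. B2M had 1178, 928 and 1193 CPM in the knockdown and 1125, 937 and 1416 CPM in the control, with overlapping groups and a log2 fold change of -0.08 (SE 0.19).

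Control library 3 stood apart from control libraries 1 and 2 among the members and among all genes, though not in the same proportions. It was the highest control for 20 of 40 members (50%), beside 44.9% of all genes tested, and the lowest for 14 (35%), beside 45.3%. Against the mean of the other controls it was at least 2-fold lower for 5 members, IRF7, ISG15, IFI27, IFITM3 and IFI35 (12.5%, beside 19.3% of all genes). It was at least 2-fold higher for 4 members, RSAD2, IFIT2, IFIT3 and SAMD9 (10%, beside 1.23% of all genes). IRF7 had 1 read there against 82 in the other controls together, a ratio of 0.0319 after scaling with an exact 95% interval of 0.000799 to 0.183 that covers counting error only. Relative to the mean of the other controls on the log2 scale, ISG15 was at -2.63 and IFI27 at -1.85. RSAD2 was at 1.55, IFIT2 at 1.05 and IFIT3 at 1.03.

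The departure of control library 3 followed the GC content of the transcripts. Over 12067 tested genes with a GC value, the departure and GC content had a Pearson correlation of -0.84 (Spearman -0.86). Over the 40 members it was -0.86 (Spearman -0.85), a description over genes that share the same libraries and are not independent replicates. IRF7 and ISG15, at 66.8% and 63.4% GC, were the members with the highest GC content and lay furthest below the other controls, whereas the IFIT genes lay between 37.4% and 44.3% GC and were higher. With genes cut into 5 equal bins of GC content, the median departure in the highest bin was -2.24 for the 4 members there and -1.32 for all genes. In the lowest bin it was 0.59 for the 9 members there and 0.54 for all genes. In the second lowest bin, with IFIT1, IFIT2, IFIT3 and RSAD2 among its 9 members, it was 0.67 for the members and 0.36 for all genes. In the middle bin it was 0.13 for 6 members and 0.04 for all genes. In the second highest bin it was -0.35 for 12 members and -0.52 for all genes. Knockdown library 3 departed from knockdown libraries 1 and 2 in the same direction and by less, with correlations with GC content of -0.74 over the members and -0.71 over all genes. Exonic length moved with the departure too, at 0.58 over the members and 0.20 over all genes. Coverage of the 5′ end was also lower in control library 3, where the first exon held a median of 0.477% of a gene's exon reads over 8231 genes, against 1.01% to 1.52% in the knockdown libraries and 1.22% and 1.30% in the other controls. The part of these features in the departure was not tested.

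**Figure D4:**
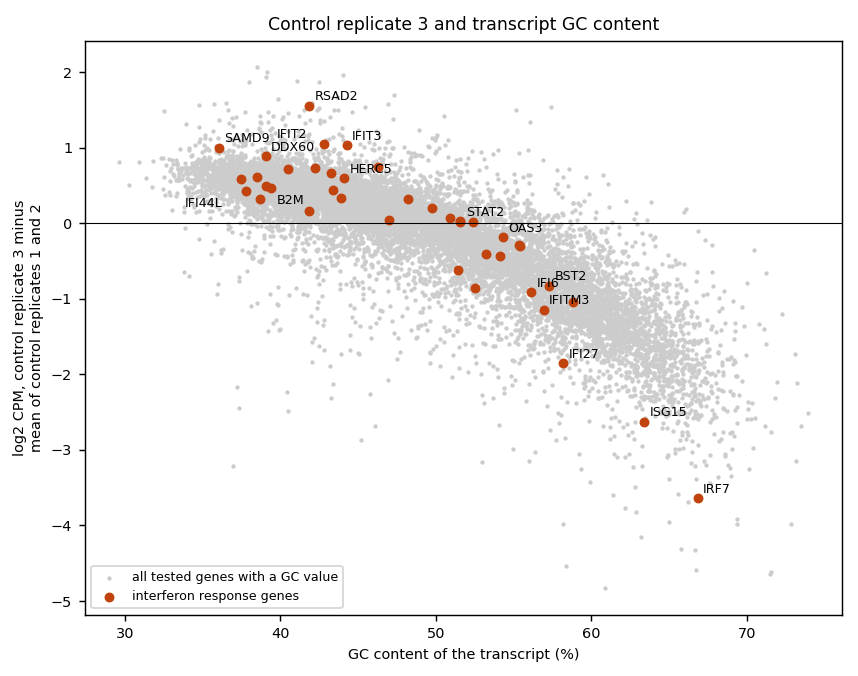
Log2 CPM of control library 3 minus the mean of control libraries 1 and 2 against the GC content of the transcript in percent, for all tested genes with a GC value in grey and the interferon response genes in orange. The members follow the slope of all genes, with IRF7 and ISG15 at the lower right and RSAD2, IFIT2 and IFIT3 at or above the upper edge of the cloud.

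A fit added after the data were seen took out of each library its smooth trend with transcript GC content and exonic length. After this the departure of control library 3 had an interquartile range of 0.36 on the log2 scale over the members, against 1.02 before. Over the 12067 genes with a GC value it was 0.38, against 1.16 before. Of 40 members, 32 lay within 0.5 of the other controls, against 19 before, and of the 12067 genes 9940 did, against 6060. The trend was fitted to these same libraries, so a narrower spread was built in. The departure still had a Pearson correlation with GC content of -0.45 over the members. Over all genes it was -0.00019, a value that the fit itself sets near 0. Among the members still beyond the bound of 0.5 were IRF7 at -1.71, ISG15 at -0.92, RSAD2 at 1.18, IFIT3 at 0.78 and IFIT2 at 0.72. The correction also takes out any difference between the groups that runs with GC content or length. The fit called 7 members (17.5%, beside 16.4% of all genes): IFI44L and IFI44 higher, and HERC5, DDX60, PARP9, PARP14 and IFI35 lower. IFI44L had a log2 fold change of 1.17 (SE 0.10) there with an adjusted p of 0.0003, and HERC5 one of -1.33 (SE 0.20) with an adjusted p of 0.00352. With the block as well, 12 members were called (30%, beside 34.8% of all genes). MX2 and IFIH1 joined IFI44L and IFI44 among the 4 that were higher, beside 13.9% of all genes, and STAT2, OAS3 and DDX58 joined the 5 above among the 8 that were lower, beside 20.9% of all genes. Without control library 3, in place of the correction, 3 members were called (7.5%, beside 7.31% of all genes): IFI44L and IFI44 were higher, beside 4.47% of all genes, and HERC5 was lower, beside 2.84%.

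**Figure D5:**
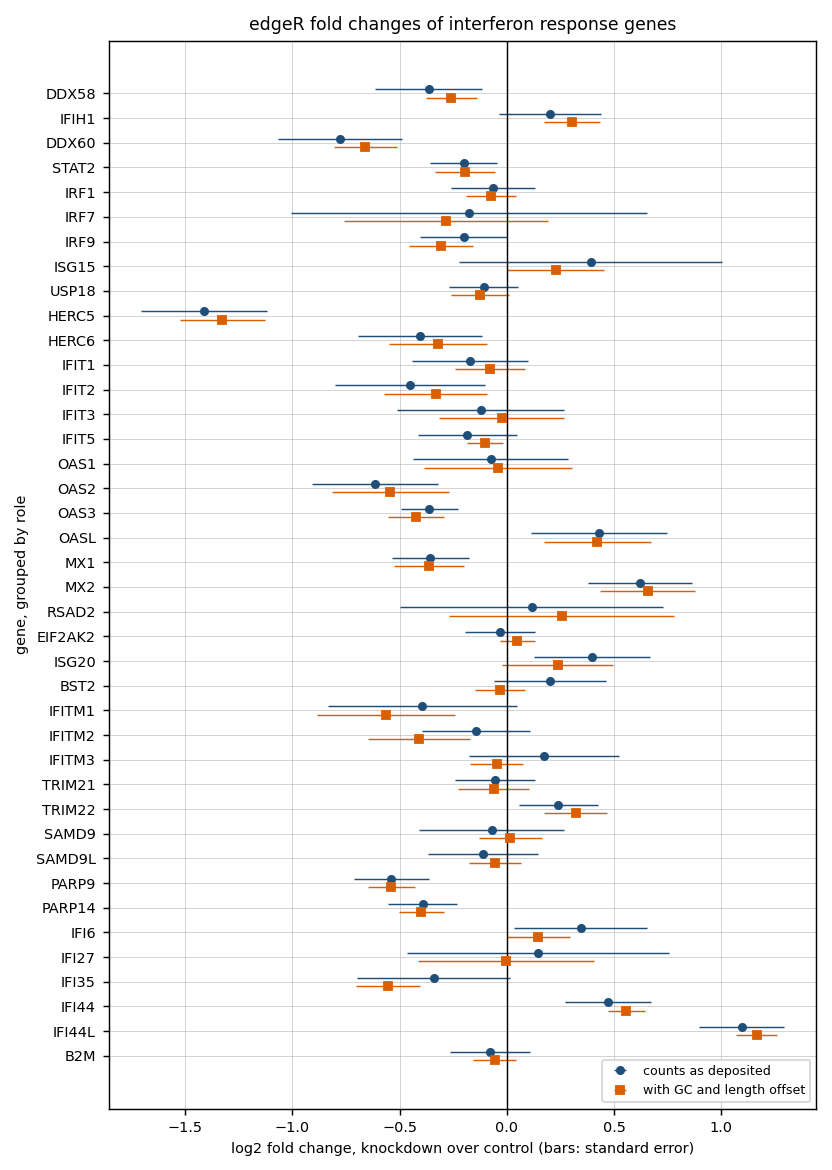
Log2 fold change of each tested member, knockdown over control, with bars of 1 standard error, from the counts as deposited (blue circles) and with the GC and length offset (orange squares). With the offset the bars shrink for GC-rich genes such as ISG15 (SE 0.61 to 0.23) and for GC-poor genes such as SAMD9 (SE 0.34 to 0.15). IFI44L and HERC5 are at 1.17 and -1.33 with the offset.

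Genes of the pathway upstream passed the test about as often as all genes. Of 29 tested genes for interferons, receptors, kinases, sensors, adaptors and inhibitors, edgeR called 0 without the block (beside 1.67% of all genes), with 4 at an unadjusted p below 0.05 (beside 15.5% of all genes), and DESeq2 called 0. The receptor-bound kinase JAK1 had a log2 fold change of -0.25 (SE 0.18, adjusted p 0.592). With the block 4 genes were called (13.8%, beside 17.3% of all genes), all lower. They were the receptor chain IFNAR1 at -0.53 (SE 0.20), the factor STAT3 at -0.38 (SE 0.11), TRIM25, a ligase that activates RIG-I, at -0.43 (SE 0.11), and the phosphatase PTPN11 at -0.56 (SE 0.16), all unblocked log2 fold changes. Of 53 further interferon-stimulated genes tested, edgeR called 0 without the block, with 8 at an unadjusted p below 0.05 (beside 15.5% of all genes), and DESeq2 called 1. With the block 9 were called (16.98%, beside 17.3% of all genes), 3 higher and 6 lower. Among those with the lowest adjusted p were APOL6 (-0.88), ERAP2 (-0.69), WARS (-0.48), GBP2 (0.47) and TDRD7 (-0.47), all unblocked log2 fold changes, so that both directions occurred there as among the members.

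MSI1 iCLIP sites lay in about the same share of the members as of all genes. The 3 lists held 1746795, 145718 and 208722 sites, and shared sites are those listed at 1 nucleotide and strand in each of the 3. At least 1 shared site lay in 3 of 40 members (7.5%), beside 6.37% of all genes tested, and at least 1 exonic shared site in 1 member (2.5%), beside 2.48% of all genes. That member was B2M, also the most abundant one, with 12 shared sites, all in the last of its 4 exons (hg18, chr15:42797158-42797508, plus strand). EIF2AK2 had 2 shared sites and PARP9 had 1, all in introns. IFI44L had 29, 10 and 5 sites in lists 1, 2 and 3 and no shared one, and HERC5 had 2, 2 and 1 sites and no shared one. B2M was at 1145 RPKM and HERC5 at 2.69 RPKM, and the part of RNA level in these counts was not tested.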

How the data were processed

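Per the labels, RNA-seq of 3 MSI1 knockdown and 3 control samples and MSI1 iCLIP of 3 control samples were analysed, grouped and numbered by sample title. The authors deposited raw read counts per gene and per exon, and iCLIP lists of single nucleotides with a p-value each, which is the authors' own, on hg18 per the submitters' processing notes. The aligner, counter, strand setting and site caller were not given in the sources used here. Per the labels, the protocol covers iCLIP alone and has replicates combined, though values are separate. The members and all lists were chosen with earlier results of these data known.

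Gene counts were tested with edgeR 4.0.16 (R 4.3.3): TMM, filterByExpr, quasi-likelihood test, Benjamini-Hochberg over 13856 genes, threshold 0.05, group alone (4 residual degrees of freedom). Log2 CPM used a prior count of 2. RPKM used the summed exon length of the deposited exon table. For pairing, each library's deviation from its group mean was correlated with that of the same number in the other group (0.32, 0.73 and 0.75 for numbers 1, 2 and 3), though control library 1 correlated more with knockdown library 2 (0.49). All same-number values exceed the bound of 0.1, but so does that mismatched pair, so the check cannot establish pairing. Pairing by title number, on which the block and the changes within pairs rest, was assumed. All libraries differed by more than sampling noise (lowest chi-square per gene 21.2). DESeq2 1.42.0, other filters, omitted libraries, and a loess offset (span 0.5) on GC content and exonic length were alternatives. GC content came from GENCODE transcripts on GRCh38 by symbol.

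Per-sample values are given for members called by either fit, the 2 highest of each role, and the 3 largest departures of control library 3 in each direction. Some genes of the further lists are not reported here by name.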

Additional observations from a re-analysis of the deposited data

How the results depend on the processing

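Calls depended on the block, the tool, the libraries used and the offset. All genes called numbered 232 (107 higher, 125 lower), and 2398 with the replicate block, 798 with DESeq2, 0 to 1028 when 1 library was left out, 1699 without both libraries of number 3, 2266 with the GC and length offset, 4819 with the offset and the block, and 4456 (31.8%) with the block and without number 3. DESeq2's size factors in edgeR gave 191 (107 higher, 84 lower). Members called numbered 1 of 40 tested, and 7 with the block (17.5%, beside 17.3% of all genes). DESeq2's size factors in edgeR gave 0 members (IFI44L at an adjusted p of 0.0562), and DESeq2 gave 2 (5%, beside 798 of 13856 genes). Members numbered 0 to 3 when 1 library was left out and 4 without both libraries of number 3 (10.3%, beside 1699 of 14007 genes). The offset gave 7 (17.5%, beside 16.4%), and 12 with the block too (30%, beside 34.8%). With the block and without number 3 there were 11 (28.2%, beside 31.8%). Upstream genes called numbered 0 of 29 tested, and 4 with the block (13.8%, beside 17.3% of all genes). There were 2 without number 3 (6.9%, beside 1699 of 14007 genes) and 4 with the offset (13.8%, beside 16.4%). Offset and block together gave 7 upstream genes (24.1%, beside 34.8%). Further interferon-stimulated genes called numbered 0 of 53 tested, and 9 with the block (16.98%, beside 17.3% of all genes). DESeq2 called 1 (1.89%, beside 798 of 13856 genes). When 1 library was left out 0 to 2 were called, the 2 without control library 3 (3.77%, beside 7.31%). There were 6 without number 3 (11.3%, beside 1699 of 14007 genes) and 10 with the offset (18.9%, beside 16.4%). Offset and block together gave 22 further genes (41.5%, beside 34.8%). Members with an exonic iCLIP site numbered 1, 5 when shared meant at least 2 lists (12.5%, beside 18.9% of all genes), and 0 at a deposited p-value below 0.05 in each list (beside 0.173% of all genes). Log2 fold changes turned sign for 1 to 5 members in fits of all libraries, 5 of 39 without number 3 and 1 to 13 of 40 when 1 library was left out, none of them called in the fit concerned or in that of group alone. Among members given by library they were IRF7 (0.014 with the block), IFIT1 (0.11) and B2M (0.082) without number 3, and BST2 (-0.034, and -0.026 with the block too), IFITM3 (-0.047, and -0.046 with the block too) and IFI27 (-0.0044) with the offset. EIF2AK2, SAMD9 and OAS1 turned too. With 1 library left out, log2 fold changes ranged from -0.65 to 0.51 for IRF7, -0.025 to 0.71 for ISG15, -0.33 to 0.18 for IFIT1, -0.66 to 0.051 for IFIT2, -0.45 to 0.38 for IFIT3, -0.30 to 0.10 for IFIT5, -0.24 to 0.98 for RSAD2, -0.066 to 0.43 for IFITM3, -0.30 to 0.82 for IFI27 and -0.21 to 0.16 for B2M. The cause of these shifts was not tested. With 3 libraries a group and single reads for IRF7 in control library 3, changes of the lowest members are not resolved at this depth.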
